A study of Mus musculus with 4 samples.

Results

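Macrophages are the main resident immune cells of skeletal muscle, where they clear debris and support repair. Their shared surface receptors, lysosomal proteins and complement factors serve to follow these cells in RNA from whole tissue. Complement is a cascade of plasma proteins that tags material for uptake, and its first component, C1q, is built from 3 chains that macrophages themselves produce. The results concern 39 genes of macrophages and complement, chosen by symbol. Of these, 37 were measured by a probe set annotated with that symbol alone, among 18193 genes with such a probe set. C3 and C4b were not analysed here.

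Expression was measured on Affymetrix mouse arrays in the tibialis cranialis, a shin muscle, of 8 male C57Bl/6 mice. All of them went from chow to a high fat diet at an age of 8 weeks, were injected 4 weeks later and were killed 10 weeks after that, aged 22 weeks. In each mouse 1 leg received AAV8 ProMyo, an adeno-associated virus that delivers the myostatin propeptide, an inhibitor of the muscle growth inhibitor myostatin, and the other leg received saline. Every array carried equal amounts of RNA from 4 animals, with pools of animals 1-4 and 5-8 on 2 ProMyo and 2 saline arrays. The saline leg had no empty vector, so effects of virus and of propeptide cannot be told apart, and the promoter that drives the propeptide is not given in the sources used here. In pooled whole muscle, fewer macrophages and less RNA per macrophage cannot be told apart either.

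Values are log2 expression as deposited, and differences are ProMyo minus saline on that scale. The highest Bacillus control, a probe set with no target in muscle, read 0.99 and was taken as the background level. That reading came from the saline 5-8 array, and on the others the highest Bacillus control read 0.57 to 0.76. The saline 5-8 array stood apart from the others. Its hybridization controls averaged 11.1 against 10.1 to 10.2, its upper quartile was 2.97 against 3.15 to 3.20, and its lower quartile was 0.51 against 0.40 to 0.44. All 9 muscle fibre markers, among them Acta1, lay above background on every array. Of the 37 members, 29 lay above background on every array. Cx3cr1, the fractalkine receptor of monocytes and many tissue macrophages, was at or below it on all 4 arrays and was left out of the tests, which covered 36 members among 14665 genes. The lineage markers Itgam and Aif1, the activating Fc receptor Fcgr1 and the integrin Itgax exceeded background on 1 array each, the saline 5-8 array.

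No promoter activity was measured, but promoter windows from RefSeq (GRCm38.p6; 250 bases before to 50 after the transcript start) were at hand for 28 of the 39 genes, in 32 windows. PU.1, the product of the member Spi1, is the master transcription factor of myeloid cells and is known to bind the letters GAGGAA. Searched on both strands (GAGGAA or TTCCTC), these letters occurred in 18 of the 32 windows (56.2%), against 28.3% of all 32851 windows. A match is a string of letters and not a shown binding site. The 5 windows below belong to members that the results return to: C1qb and Mrc1, both lower in ProMyo muscle in each pool, C1qc, the neighbour of C1qb, and Cbr2 and Cd163, both higher in each pool. Capitals mark the matches. C1qb (chr4:136886151-136886450, minus strand) has 1 match that begins 30 bases before the start, C1qc (chr4:136892865-136893164, minus strand) 1, Mrc1 (chr2:14229164-14229463, plus strand) 3, Cbr2 (chr11:120731972-120732271, minus strand) 1 and Cd163 (chr6:124304401-124304700, plus strand) 0.
C1qb: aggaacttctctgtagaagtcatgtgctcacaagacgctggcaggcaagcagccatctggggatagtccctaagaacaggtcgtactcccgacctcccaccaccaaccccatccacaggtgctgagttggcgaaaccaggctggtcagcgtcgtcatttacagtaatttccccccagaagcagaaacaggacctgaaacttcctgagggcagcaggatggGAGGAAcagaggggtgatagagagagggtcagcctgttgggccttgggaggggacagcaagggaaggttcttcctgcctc
C1qc: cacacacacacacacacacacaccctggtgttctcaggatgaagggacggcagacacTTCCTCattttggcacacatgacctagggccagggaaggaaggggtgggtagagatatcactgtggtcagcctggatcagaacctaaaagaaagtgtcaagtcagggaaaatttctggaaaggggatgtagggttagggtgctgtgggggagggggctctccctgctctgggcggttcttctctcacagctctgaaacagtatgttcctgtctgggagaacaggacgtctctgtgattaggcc
Mrc1: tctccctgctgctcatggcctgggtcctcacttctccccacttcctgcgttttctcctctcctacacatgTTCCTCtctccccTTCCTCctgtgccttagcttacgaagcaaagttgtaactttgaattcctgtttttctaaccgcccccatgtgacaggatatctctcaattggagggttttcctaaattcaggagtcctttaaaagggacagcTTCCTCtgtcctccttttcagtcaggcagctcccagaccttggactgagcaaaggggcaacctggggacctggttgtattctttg
Cbr2: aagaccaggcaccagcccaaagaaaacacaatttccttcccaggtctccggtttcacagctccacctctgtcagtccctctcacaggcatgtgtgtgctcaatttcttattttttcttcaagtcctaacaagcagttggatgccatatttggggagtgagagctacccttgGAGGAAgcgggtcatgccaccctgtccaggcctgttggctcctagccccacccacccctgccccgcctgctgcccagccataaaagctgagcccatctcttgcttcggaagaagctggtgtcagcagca
Cd163: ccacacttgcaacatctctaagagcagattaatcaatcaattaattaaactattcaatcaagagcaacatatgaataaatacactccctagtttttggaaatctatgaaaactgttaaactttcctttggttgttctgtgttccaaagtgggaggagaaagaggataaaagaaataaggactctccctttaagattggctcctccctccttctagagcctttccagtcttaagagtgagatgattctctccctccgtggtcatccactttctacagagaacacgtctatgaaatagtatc

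None of the 36 members passed limma's test over all genes, and nor did any other gene. The count was 0 of 36 for the members and 0 of 14665, or 0.0%, for all genes, and the members' adjusted p ran from 0.82 to 1.0 (limma, Benjamini-Hochberg). At an unadjusted p under 0.05 there were 3 members, or 8.33%, against 5.81% of all genes: C1qb and Mrc1 lower and Lyve1 higher in ProMyo muscle. No member differed by 1.5-fold or more in the same direction in both pools, where 0.573% of all genes were lower by that much and 1.06% higher. The median standard error of a member's difference was 0.22. Limma's errors combine the spread between 2 pooled samples per group with the typical spread over all genes tested. They leave out the pairing of legs.

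Members that stood lower in ProMyo muscle in each pool outnumbered those that stood higher. In both pools 16 of 36 members were lower (44.4%, against 23.7% of all genes tested) and 6 were higher (16.7%, against 29.4%), and the remaining 14 differed in sign between the pools or had no difference in 1 of them. The median difference was -0.12, with -0.08 in animals 1-4 and -0.15 in animals 5-8, against 0.02 over all genes. Leaving out ProMyo 5-8 gave -0.049, and leaving out saline 1-4 gave -0.065. The shares over all genes shift with the scaling of the arrays. After quantile normalization 17 members were lower against 29.8% of all genes, and 7 higher against 25.2%; with arrays centred on the genes above background, 16 were lower against 30.3% and 7 higher against 22.6%. The stricter requirement that both ProMyo arrays lie below both saline arrays held for 7 members (19.4%, against 15.5% of all genes), and both lay above both saline arrays for 5 (13.9%, against 18.0%). These latter shares are near those of all genes. No test was made of the members as a group.

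**Figure D1:**
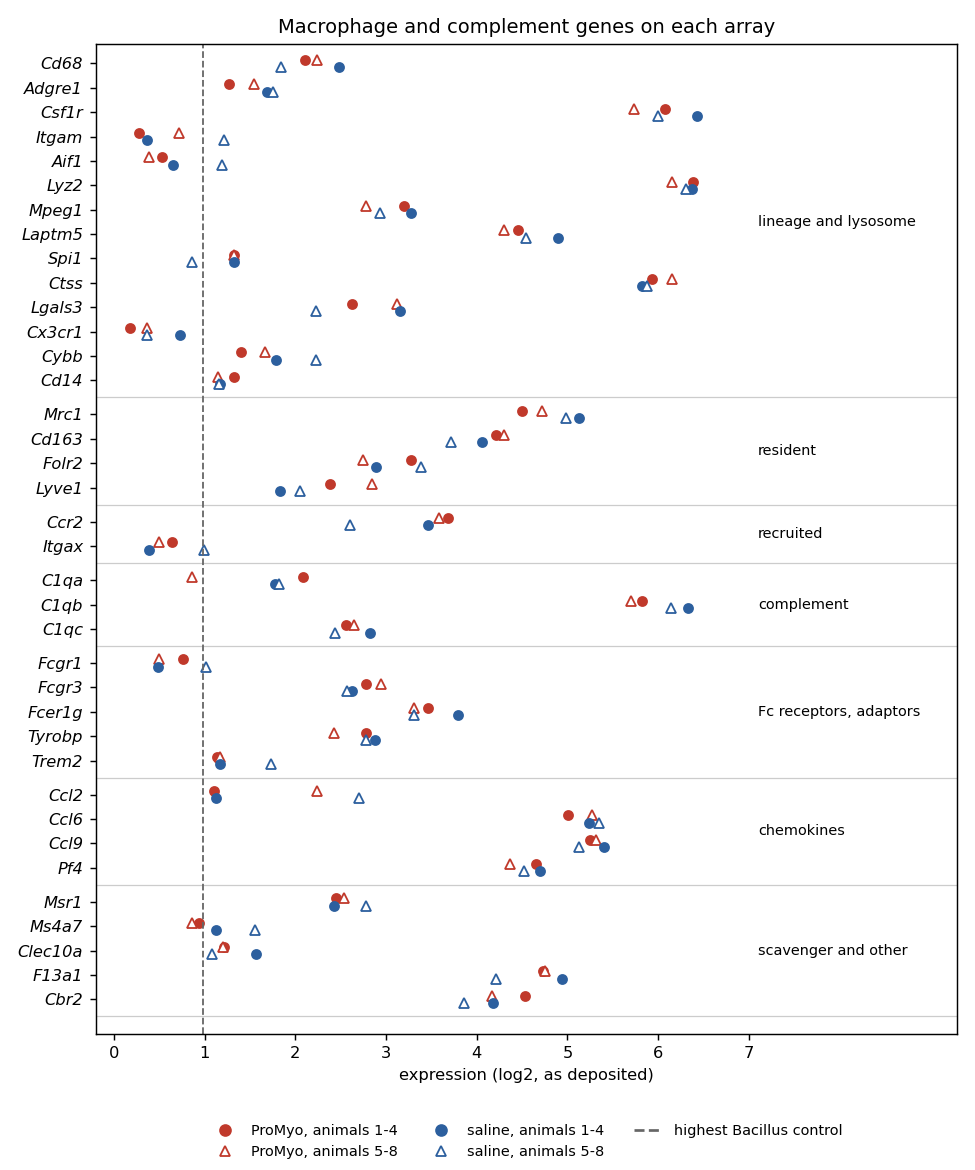
Expression of the 37 measured members (log2, horizontal axis) on each of the 4 arrays: red ProMyo, blue saline, filled circles animals 1-4, open triangles animals 5-8, dashed line the highest Bacillus control at 0.99. For Mrc1 and C1qb both red symbols lie left of both blue ones, for Lyve1 and Ccr2 both lie to the right, and Itgam, Aif1, Itgax and Fcgr1 cross the dashed line in the saline 5-8 array alone.

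The 3 chains of C1q, encoded side by side in the genome, all had negative mean differences, but only C1qb was lower in both pools. C1qb read 5.82 and 5.70 on the ProMyo arrays of animals 1-4 and 5-8 and 6.33 and 6.14 on the saline arrays, so the groups did not overlap. Its difference was -0.48 ± 0.17 (log2 ± SE, n = 2 pools per group), with -0.51 and -0.45 in the pools, and saline muscle stood 1.39-fold above ProMyo muscle (limma, adjusted p = 0.82). C1qc read 2.56 and 2.65 in ProMyo and 2.83 and 2.44 in saline muscle. Its groups overlapped, the pools differed in sign (-0.27 and 0.22), and the mean difference was -0.03 ± 0.20. C1qa read 2.09 and 0.86 in ProMyo and 1.77 and 1.82 in saline muscle. The low ProMyo 5-8 value, below background, set its mean of -0.32 ± 0.41, which was 0.29 without that array. The pools shared a sign at C1qb and not at the other chains.

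C1qb is read by 3 probe sets. The next brightest also stood lower in both pools, by -0.43 and -0.35, while the dimmest gave -0.12 and 0.18. The brighter pair carry the array maker's x_at suffix, given to probe sets with probes that can also match other sequences, and the dimmest does not. Which reading is closer to the transcript was not tested.

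Other complement genes, from a list of 33 that leaves out the members, split in both directions. Of the 21 that could be tested, 8 were lower and 6 higher in both pools, against 23.7% and 29.4% of all genes tested. Their median was -0.06, and none passed limma's test. At an unadjusted limma p under 0.05 there were 2, against 5.81% of all genes. C1ra, the protease that C1q activates first, read 2.39 and 2.32 in ProMyo and 3.35 and 3.07 in saline muscle, a difference of -0.86 ± 0.18 (limma, adjusted p = 0.82). C3ar1, the receptor for the C3a fragment on macrophages, read 2.43 and 2.50 in ProMyo against 1.96 and 1.99 in saline muscle, a difference of 0.49 ± 0.15 (limma, adjusted p = 0.82). Itgb2, the beta chain of complement receptor 3 that pairs with Itgam, differed by -0.44 ± 0.18. C1ra and C3ar1, named for the smallest p of the list, thus lay apart without overlap in opposite directions. Without overlap 5 of the 21 lay below and 5 above, against 15.5% and 18.0% of all genes.

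The 4 markers of resident macrophages did not share a direction either. Mrc1, the mannose receptor CD206, read 4.50 and 4.72 in ProMyo and 5.13 and 4.98 in saline muscle. The groups did not overlap, with a difference of -0.45 ± 0.17 and pools at -0.63 and -0.26 (limma, adjusted p = 0.82). Lyve1, a hyaluronan receptor of perivascular macrophages and of lymphatic vessels, went the other way with 2.38 and 2.85 in ProMyo and 1.83 and 2.05 in saline muscle.

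The Lyve1 difference of 0.67 ± 0.22 came to 1.59-fold, with pools at 0.55 and 0.79 (limma, adjusted p = 0.82). The second Lyve1 probe set gave 0.21 and 0.40. Since lymphatic endothelium also makes Lyve1, 6 lymphatic genes were looked up after its values were seen, and 5 had a probe set. Prox1, the transcription factor that defines lymphatic endothelium, was lower in both pools with a mean of -0.25 ± 0.18, Pdpn was higher in both with 0.07 ± 0.16, and Flt4, Mmrn1 and Reln differed in sign between the pools. What lymphatic vessels add to the Lyve1 signal was not tested.

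Cd163, the haemoglobin scavenger receptor, read 4.21 and 4.30 in ProMyo and 4.06 and 3.71 in saline muscle, without overlap. Its difference was 0.37 ± 0.19, with 0.15 and 0.59 in the pools. Folr2, a folate receptor of resident macrophages, read 3.28 and 2.74 in ProMyo and 2.89 and 3.38 in saline muscle. Its pools went in opposite directions, with 0.39 and -0.64. The median of the 4 resident markers was 0.12, and it ran between 0.042 without the ProMyo 1-4 array and 0.23 without the ProMyo 5-8 array.

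Of the markers of recruited, monocyte-derived cells, Ccr2 lay above background on every array at its brightest probe set, and Itgax on 1 array. Ccr2, the chemokine receptor by which monocytes leave the bone marrow and enter tissue, read 3.68 and 3.59 in ProMyo and 3.46 and 2.60 in saline muscle. The difference of 0.60 ± 0.31 came to 1.52-fold, but most of it lay in animals 5-8 (0.99, against 0.21 in animals 1-4), where the saline 5-8 array was low (limma, adjusted p = 0.83). It was 0.17 without that array and 1.03 without saline 1-4. Its other 3 probe sets were below background by their means, and averaging all its probe sets gave a difference of 0.05. Itgax, the integrin CD11c, was at 0.64, 0.49 and 0.38 on 3 arrays and at 0.99 on the saline 5-8 array, at the edge of background. Ccl2, the ligand of Ccr2, differed more between pools of animals than between legs, with 1.10 in ProMyo and 1.12 in saline muscle of animals 1-4 and 2.24 and 2.70 in animals 5-8.

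**Figure D2:**
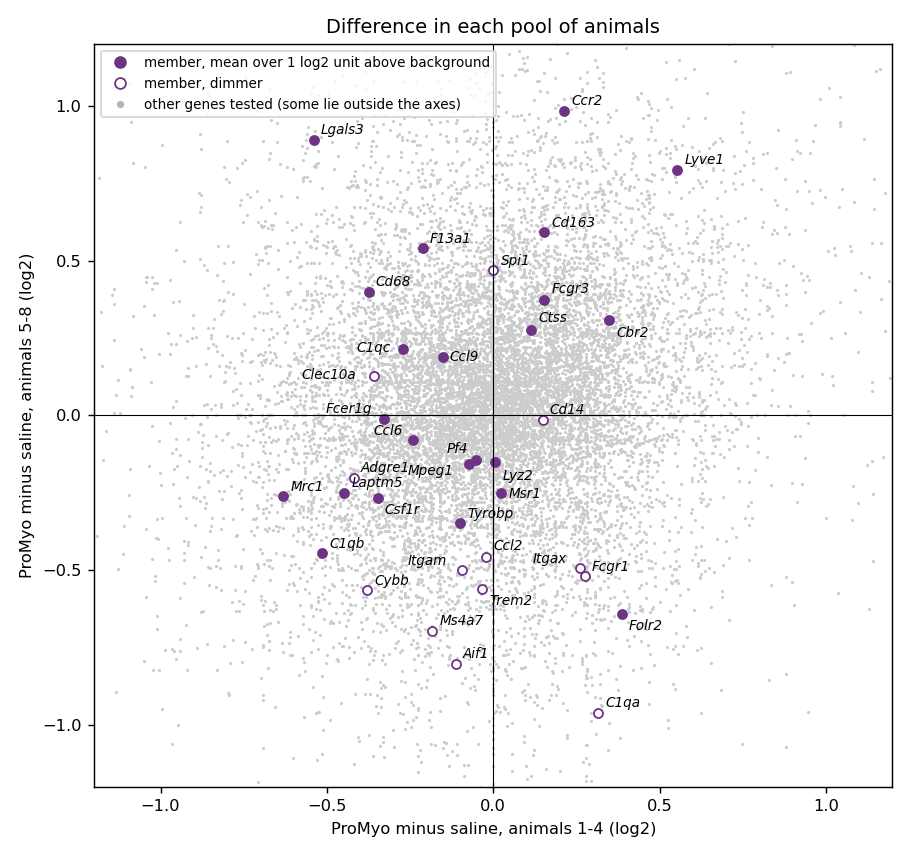
ProMyo minus saline (log2) in animals 1-4 (horizontal axis) against animals 5-8 (vertical axis), with the 36 tested members in purple and all other genes tested in grey. In the lower left quadrant lie the 16 members lower in both pools, in the upper right the 6 higher in both; open symbols mark the 13 members whose mean is no more than 1 log2 unit above background.

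Among the genes of the macrophage lineage and its lysosomes, 7 of the 13 tested were lower in both pools and 1 was higher in both, where 23.7% and 29.4% of all genes tested were. Csf1r, the receptor for the growth factor that keeps macrophages alive, read 6.08 and 5.73 in ProMyo and 6.43 and 6.00 in saline muscle. Within each pool the ProMyo leg was lower, by -0.35 and -0.27, although the groups overlapped, and the mean was -0.31 ± 0.23. That mean rested on single arrays: it was -0.09 without saline 1-4, -0.13 without ProMyo 5-8, -0.48 without ProMyo 1-4 and -0.52 without saline 5-8. The 2 other Csf1r probe sets, both above background, gave -0.44 and 0.20 and then -0.18 and 0.27, so they did not share the sign in animals 5-8.

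Laptm5, a lysosomal protein of blood cells, read 4.45 and 4.30 in ProMyo and 4.90 and 4.55 in saline muscle, without overlap (-0.35 ± 0.19). That probe set carries the x_at suffix, as the brighter C1qb pair do. The next Laptm5 probe set was lower in both pools as well, with a mean of -0.25. Adgre1, the F4/80 antigen of mouse macrophages, read 1.26 and 1.55 against 1.68 and 1.75 in saline muscle, with a difference of -0.31 ± 0.18. Cybb, the catalytic subunit of the phagocyte NADPH oxidase, read 1.40 and 1.66 against 1.78 and 2.23. Its difference of -0.47 ± 0.22 was not shared by its second probe set (0.04), which lay below background by its mean.

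Other lineage genes held no common direction. Ctss, the lysosomal protease cathepsin S, was higher in both pools (5.93 and 6.15 in ProMyo, 5.82 and 5.88 in saline muscle), by 0.20 ± 0.17. Lyz2, the lysozyme of macrophages and neutrophils, differed by -0.07 ± 0.17 and Mpeg1, the pore-forming perforin-2, by -0.11 ± 0.23. Cd68, a lysosomal glycoprotein, and Lgals3, the lectin galectin-3, differed in sign between the pools, with -0.37 and 0.40 for Cd68 and -0.54 and 0.89 for Lgals3. Spi1 read 1.32 on 3 arrays and 0.86, below background, on the saline 5-8 array. Cd14, the coreceptor for bacterial lipopolysaccharide, lay between 1.15 and 1.32 on all arrays. Itgam and Aif1 differed by -0.30 and -0.46 through their saline 5-8 values of 1.21 and 1.19, with the other 3 arrays at background.

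The Fc receptors and the adaptors they signal through showed small differences of both signs. Fcer1g and Tyrobp, adaptors with immunoreceptor activation motifs, were lower in both pools, by -0.17 ± 0.22 and -0.22 ± 0.19. Fcer1g differed by -0.33 in animals 1-4 and by only -0.01 in animals 5-8, and its mean difference was 0.07 without saline 1-4. Fcgr3, a low-affinity receptor for immunoglobulin G that uses Fcer1g, was higher in both pools, with 2.78 and 2.94 in ProMyo and 2.62 and 2.57 in saline muscle, and differed by 0.26 ± 0.16. Trem2, a lipid-sensing receptor that uses Tyrobp, differed by -0.30 ± 0.23; 3 of its arrays lay between 1.14 and 1.17 and the saline 5-8 array at 1.73.

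Of the chemokines, Ccl6, Pf4 and Ccl2 were lower in both pools and Ccl9 was mixed. Ccl6, a chemokine of myeloid cells in rodents, read 5.00 and 5.27 in ProMyo and 5.24 and 5.35 in saline muscle at its brightest probe set (-0.16 ± 0.18). Its second probe set, also above background, gave a larger difference, with 2.81 and 2.65 in ProMyo and 3.78 and 3.35 in saline muscle, or -0.83 on average. Ccl9, from the same chemokine cluster, differed by -0.15 and 0.19 in the pools at the brightest probe set and 0.45 and 0.64 at the other. Pf4, made by platelets and resident macrophages, differed by -0.10 ± 0.18.

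Cbr2, a carbonyl reductase of resident macrophages in several tissues, was higher in ProMyo muscle in both pools to a like extent. It read 4.53 and 4.17 in ProMyo and 4.18 and 3.86 in saline muscle, a difference of 0.35 and 0.31 in the pools and of 0.33 ± 0.21 on average; the groups overlapped because animals 1-4 read above animals 5-8 in both legs. F13a1, a transglutaminase chain of resident macrophages and platelets, and Clec10a, a galactose-binding lectin, differed in sign between pools, with -0.21 and 0.54 for F13a1 and -0.36 and 0.13 for Clec10a. Msr1, a scavenger receptor, differed by -0.11 ± 0.19. Ms4a7, a membrane protein of mature macrophages, read 0.94 and 0.86 in ProMyo and 1.12 and 1.55 in saline muscle, so its ProMyo values lay at background and the size of the difference of -0.44 is uncertain.

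**Figure D3:**
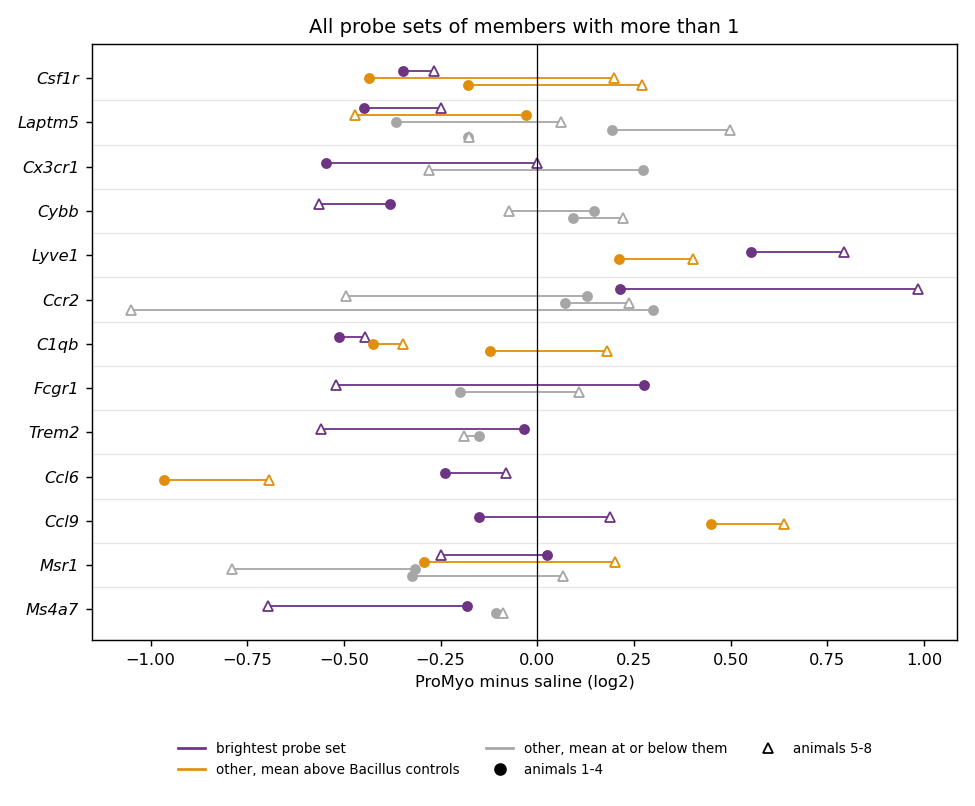
ProMyo minus saline (log2) at every probe set of the 13 members that have more than 1, with filled circles for animals 1-4, open triangles for animals 5-8, and a line joining the pools of each probe set. Purple marks the brightest probe set, orange others with a mean above background and grey those at or below it; both Lyve1 probe sets lie right of 0 and both Ccl6 probe sets left of it, while Csf1r and Ccl9 are split.

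Where a member had a further probe set with a mean above background, the sign of the mean difference was usually shared. There were 9 such probe sets in 7 members, and 7 of them had the sign of the brightest. The exceptions were the dimmest probe sets of Csf1r (0.05) and C1qb (0.03). At Lyve1, Laptm5, Ccl6 and C1qb the second probe set also had the same sign in both pools as the brightest.

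Dim members were often highest on the saline 5-8 array. Of the 13 members with a mean no more than 1 log2 unit above background, 9 (69.2%) had their highest value on that array, against 33.7% of 5916 equally dim genes, as did 3 of the 23 brighter members, against 11.3% of 8749 genes. In both pools 7 of the 13 dim members were lower (53.8%, against 27.4% of genes as dim) and 0 were higher (against 22.3%). Their median difference was -0.03 in animals 1-4 and -0.50 in animals 5-8. The brighter 23 had medians of -0.10 and -0.01, with 9 lower in both pools (39.1%, against 21.2% of genes as bright) and 6 higher (26.1%, against 34.1%). The part of the array's higher background in the dim members' differences was not tested. Without the saline 5-8 array, 18 of the 36 members lay below the saline 1-4 array on both ProMyo arrays, against 37.0% of all genes.

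A second list held 45 genes of macrophages and leukocytes, none of them members. In both pools 14 of the 37 that could be tested were lower and 8 higher, against 23.7% and 29.4% of all genes tested. Their median was 0.03, and none passed limma's test. At an unadjusted limma p under 0.05 there were 6, of them 5 lower, against 5.81% of all genes. Ms4a6c, a relative of Ms4a7, read 0.49 and 0.48 in ProMyo muscle, within background, and 1.16 and 1.11 in saline muscle. Fermt3, the integrin activator kindlin-3 of blood cells, read 2.77 and 2.98 against 3.53 and 3.46 in saline muscle, a difference of -0.62 ± 0.17. Alox5ap, which presents arachidonic acid to 5-lipoxygenase, went the other way with 3.79 and 3.81 against 3.28 and 3.23, a difference of 0.55 ± 0.15. These 3 were named for the smallest p of the list, and in each the groups lay apart without overlap (limma, adjusted p = 0.82 each). Without overlap 9 of the 37 lay below and 8 above, against 15.5% and 18.0% of all genes.

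Genes that feed and attract macrophages, and markers of the other cells in muscle, give the setting. Of 11 tested ligand genes 5 were lower and 3 higher in both pools, against 23.7% and 29.4% of all genes tested. Ccl8 and Ccl5, both attractants of monocytes, differed by -0.53 ± 0.21 and -0.40 ± 0.15. Ccl8 exceeded background on the saline arrays alone, and Ccl5 was at or below it on all arrays. Cxcl10, induced by interferon, differed by -0.36 ± 0.16 with 1 array above background. Of 11 fibroblast genes 9 were lower in each pool, against 23.7% of all genes tested. Among them were Col1a2 (-0.78 ± 0.15), Pi16 (-0.96 ± 0.20) and Col1a1 (-0.68 ± 0.18). Lum was higher in both pools without overlap, by 0.63 ± 0.25, and Dcn differed in sign between them. Muscle fibre markers were higher in both pools for 8 of 9, against 29.4% of all genes tested, with a median of 0.14. Endothelial markers were higher in both for 5 of 10 and lower for 0, against 29.4% and 23.7% of all genes tested. The part of these cell types in the macrophage values was not tested.

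Markers of other blood cells were mostly dim. Means at or below background were found for 5 of 8 neutrophil genes, 8 of 11 T and NK cell genes, 5 of 6 B cell genes and 3 of 7 mast cell genes. Cd3e, a chain of the T cell receptor complex, read 1.07 and 1.28 in ProMyo and 0.27 and 0.91 in saline muscle, and Cd8a 1.19 and 1.28 against 0.85 and 0.97, so both lay above background on the ProMyo arrays alone. Their differences were 0.59 ± 0.26 and 0.32 ± 0.16 (limma, adjusted p = 0.82 and 0.83). The other 5 of the 7 T and NK cell genes tested differed in sign between the pools. Among these Nkg7, above background on the saline 5-8 array alone, differed by -0.38 ± 0.25. Cma1, a mast cell chymase, differed by -0.36 ± 0.18. Of the dendritic cell list, which shares antigen presentation with macrophages, 2 of 7 were lower and 3 higher in both pools. Over all genes tested these shares were 23.7% and 29.4%. In that list H2-Ab1 differed by 0.23 ± 0.20.

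**Figure D4:**
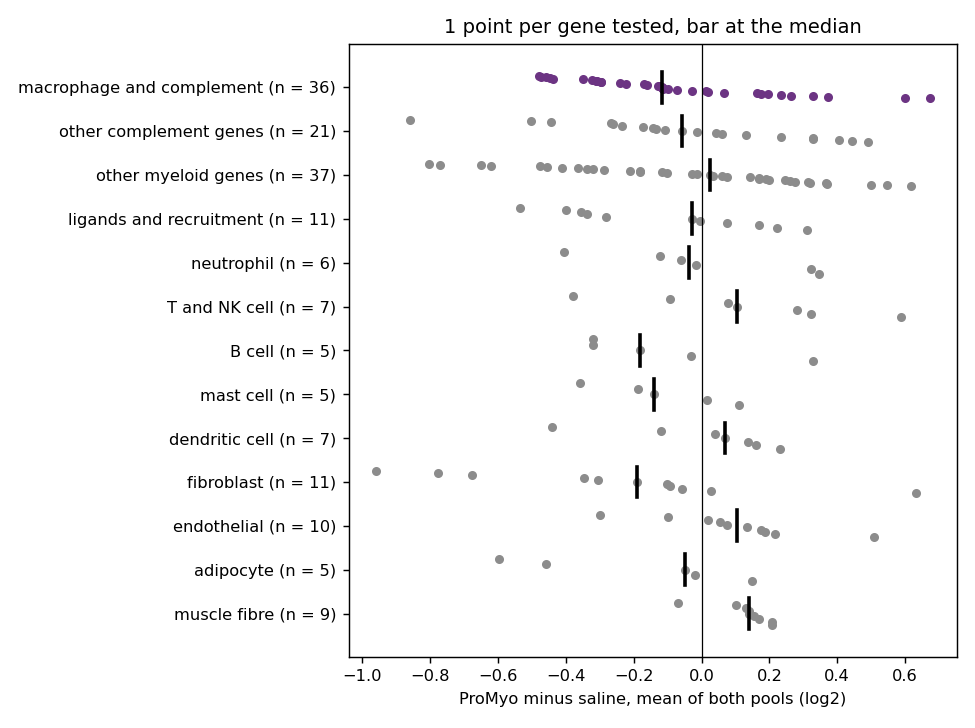
ProMyo minus saline averaged over both pools (log2) for the 36 tested macrophage and complement genes (purple) and for 12 further lists (grey), 1 point per gene tested and a black bar at each median. The macrophage and complement median is -0.12, the median of other myeloid genes 0.03, of fibroblast markers -0.19 and of muscle fibre markers 0.14.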

How the data were processed

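RNA of pooled tibialis cranialis muscle was hybridized to 4 Affymetrix arrays, 2 per group. The authors deposited log2 expression values per probe set, which the submitters' processing notes tie to RMA and Affymetrix Expression Console. Software versions were not given in the sources used here, and a log base of 2 was read from the range of the values. Of 45101 probe sets, 34945 carried 1 gene symbol. For each gene the probe set with the highest mean over the 4 arrays was used, and genes with a mean of 0.51 or less (the 25th percentile) were left out. The difference ProMyo minus saline was fitted in limma 3.58.1 (R 4.3.3; lmFit and eBayes, 2 residual and 3.13 prior degrees of freedom) with Benjamini-Hochberg adjustment over 14665 genes at a threshold of 0.05. Printed errors are limma standard errors. The fit was tested on simulated arrays.

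Both legs belonged to the same 8 mice, so same-numbered pools are paired by design; across genes, deviations of same-pool arrays from their group mean had r = 0.16. The main fit has no pairing. Arrays are pools, and 2 per group limit the precision. The members and all lists were chosen with earlier results of these data known. All members are named, and of other lists up to 3 genes with the smallest p. Exceptions are all 5 tested lymphatic genes, and Lum and Dcn, named as the fibroblast genes not lower in both pools. The lymphatic list and the split by brightness were added after the values were seen. Alternatives were the pool as a block, other filters, variance with trend, 3 scalings, other probe sets and leaving out each array. Array annotation supplied the gene symbols, of which 34741 matched RefSeq by gene identifier.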

Additional observations from a re-analysis of the deposited data

How the results depend on the processing

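Of the 14 alternatives, those that kept all 4 arrays put no member past limma's threshold, and no other gene either. With the pool as a replicate block (paired fit) 0 members and 0 of all 14665 genes passed. The members' smallest limma adjusted p was then 0.68, and the block changed no other call. The median difference of the members moved from -0.12 to -0.17 with arrays centred on genes above background and to -0.18 with quantile normalization; leaving out 1 array gave -0.15 to -0.049. The resident marker median was 0.04 with quantile normalization, 0.31 at the next brightest probe set, where only Lyve1 had one, and 0.042 to 0.23 without 1 array. Of the 9 members with a next probe set above the filter, 4 were lower in both pools and 2 higher. The shares of all genes in that setting were 23.1% and 28.1%. Of the 23 brighter members 9 were lower in both pools, against 21.2% of genes as bright. Fewer genes entered both counts. With 1 array left out, 11 to 18 members were lower in both remaining comparisons, which share an array; the 11, without ProMyo 5-8, stand beside 27.1% of all genes and the 18, without saline 5-8, beside 37.0%. With 11 of 36 the members are then near the share of all genes. The sign held in every alternative that measured them for 16 members. The pool block, the variance trend and the filters leave a gene's difference as it is, so no sign could change there. Leaving out 1 array cannot change the sign where the groups do not overlap. Without the saline 5-8 array 11 signs changed, and without the ProMyo 5-8 array 9. Members within background, and 2 arrays per group, limit what can be read. The cause of these shifts was not tested.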

Other observations

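Genes of macrophage activation gave values of both signs. Of 10 tested genes of inflammatory activation 1 was lower and 1 higher in both pools, against 23.7% and 29.4% of all genes tested. Their median was -0.01, and 4 of the 14 listed lay below the filter on dim genes. Il18, an interleukin released by the inflammasome, read 1.04 and 0.39 in ProMyo and 1.33 and 0.78 in saline muscle, and Tlr2 was within background on every array and Cd80 on 3 of them. Of 7 tested genes of alternative activation 2 were lower and 2 higher in both pools, against 23.7% and 29.4% of all genes tested. Hmox1, haem oxygenase, read 2.27 and 2.23 in ProMyo and 1.76 and 1.85 in saline muscle, a difference of 0.44 ± 0.16. Il4ra, the receptor chain for interleukin 4, read 1.01 and 1.25 against 1.48 and 1.98, a difference of -0.60 ± 0.23. Neither pair of groups overlapped (limma, adjusted p = 0.82 for both), in genes named for the smallest p of the list. Without overlap 1 of the 7 lay below and 1 above, against 15.5% and 18.0% of all genes. Stab1, a scavenger receptor, differed by -0.20 ± 0.21.

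Genes of lipid-associated macrophages, many of which muscle fibres or adipocytes also express, were higher in both pools for 5 of 11 and lower for 3. Over all genes tested 29.4% were higher and 23.7% lower. Cd9, a tetraspanin, read 3.85 and 3.56 in ProMyo and 3.50 and 2.84 in saline muscle (0.54 ± 0.27), Lpl, lipoprotein lipase, differed by 0.25 ± 0.16 and Lipa, the lysosomal acid lipase, by -0.26 ± 0.17 (limma, adjusted p between 0.83 and 0.85). Of the microglial list, Tmem119 differed by 0.28 ± 0.16, Siglech by 0.09 ± 0.18 and Sall1 by 0.01 ± 0.38. Of the adipocyte list, Retn differed by -0.46 ± 0.27 and Adipoq by -0.60 ± 0.43, with 2.27 for Adipoq on the saline 5-8 array and 0.81 to 1.39 on the other 3.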
